A study of Mus musculus with 4 samples.

Results

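The genes described are 8 chemokines, Ccl1, Ccl3, Ccl4, Ccl5, Xcl1, Cxcl9, Cxcl10 and Cxcl16, taken by their symbols from the 32285 genes that both count matrices listed. They were followed in cells sorted from tumors of B16bl6, a mouse melanoma line, in C57BL/6 hosts aged 6 to 8 weeks. WT mice carried Vsir fl/fl alleles without Cre. VISTA-KO mice were Vsir fl/fl littermates with CD4-Cre, in which the Cd4 promoter drives Cre, so that Vsir, the gene of the checkpoint protein VISTA, is targeted in CD4 and CD8 T cells alike. Mice of both genotypes had received a TRP2 peptide vaccine with CpG and R848 on day 3 after tumor inoculation and the anti-CTLA-4 antibody 9H10 on days 4 and 8, so no library comes from untreated tumors. Tumors were taken on day 18 after treatment and pooled by genotype (5 to 6 mice per the methods, 6 to 8 tumors per the figure legend), and their CD4+ and CD8+ lymphocytes were isolated with beads and by flow sorting. Each pool gave 1 gene expression library and 1 T cell receptor library. Each genotype is thus a single pool without replicates, no p-value is given, and every interval covers counting error only.

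The 5 kinds of cells were chosen by UMIs, the molecular tags that count captured RNA molecules, among cells with at least 600 genes and under 30% mitochondrial UMIs. CD8 cells had a UMI of Cd8a or Cd8b1 and none of Cd4 (5549 WT and 4350 VISTA-KO cells). Conventional CD4 cells had Cd4 without Foxp3 (1768 and 3048 cells), and regulatory cells had both (1528 and 1270 cells). Siglech cells had at least 2 UMIs of Siglech, a marker of plasmacytoid dendritic cells (221 and 138 cells), and C1q cells at least 5 UMIs of C1qa, C1qb and C1qc together, which mark macrophages (124 and 74 cells). Levels are CPM, counts scaled to the summed UMIs of the kind of cell, with exact 95% Poisson intervals. A ratio is VISTA-KO over WT with an exact interval for the 2 counts, and a gene is past 1.5-fold by log2 of CPM + 5. Genes were compared with the background of all genes at 20 CPM or more in either library.

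Chemokines are small secreted proteins that recruit cells bearing their G protein-coupled receptors. Ccl3, Ccl4 and Ccl5 are inflammatory CC chemokines made by activated and cytotoxic T cells. Xcl1 attracts cross-presenting dendritic cells through Xcr1, and Ccl1 is the ligand of Ccr8, a receptor common on tumor regulatory T cells. Cxcl9 and Cxcl10 are induced by interferons and attract T cells through Cxcr3, and Cxcl16 is a membrane-bound or shed ligand of Cxcr6 made mostly by myeloid cells.

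RefSeq promoter sequence on GRCm38.p6 was at hand for 5 of the 8 genes, all on the minus strand: Ccl1, Ccl3, Xcl1, Cxcl9 and Cxcl10. The promoters of 4 are shown, since Cxcl9 and Cxcl10 are neighbours on chromosome 5 that had different orders among the kinds of cells, and Ccl1 and Xcl1 were often found in the same ones. Each run is the 250 bases before the annotated start, 5′ to 3′ on the gene's strand, in lower case, with matches to the 8 motifs searched in capitals.
Cxcl9 (chr5:92328080-92328329, minus strand): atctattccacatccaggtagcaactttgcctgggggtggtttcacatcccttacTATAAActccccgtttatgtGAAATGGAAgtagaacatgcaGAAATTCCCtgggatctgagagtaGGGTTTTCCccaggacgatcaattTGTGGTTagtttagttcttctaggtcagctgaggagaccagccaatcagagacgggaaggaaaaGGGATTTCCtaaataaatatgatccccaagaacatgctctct
Cxcl10 (chr5:92348890-92349139, minus strand): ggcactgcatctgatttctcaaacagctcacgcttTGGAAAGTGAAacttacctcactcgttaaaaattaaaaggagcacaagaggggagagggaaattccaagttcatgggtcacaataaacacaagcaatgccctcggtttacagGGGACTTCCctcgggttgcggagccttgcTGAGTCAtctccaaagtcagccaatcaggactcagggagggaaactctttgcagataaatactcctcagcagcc
Xcl1 (chr1:164935523-164935772, minus strand): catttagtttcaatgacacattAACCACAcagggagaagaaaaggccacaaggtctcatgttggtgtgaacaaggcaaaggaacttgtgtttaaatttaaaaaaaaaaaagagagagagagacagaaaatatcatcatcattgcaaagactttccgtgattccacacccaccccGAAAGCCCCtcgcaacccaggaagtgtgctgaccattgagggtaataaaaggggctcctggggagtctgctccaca
Ccl1 (chr11:82179813-82180062, minus strand): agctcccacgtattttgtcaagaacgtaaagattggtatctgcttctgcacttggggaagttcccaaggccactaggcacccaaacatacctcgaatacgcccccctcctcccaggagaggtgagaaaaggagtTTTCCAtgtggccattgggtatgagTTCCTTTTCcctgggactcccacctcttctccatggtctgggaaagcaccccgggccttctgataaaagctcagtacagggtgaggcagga
The motifs, searched on both strands, were an interferon response element (ISRE) as GAAANNGAA, NF-kB sites as GGGNNTTCC or GGGNNTTTC, an AP-1 site as TGANTCA, an interferon gamma-activated site (GAS) as TTCNNNGAA, an NFAT core as TGGAAA, a RUNX site as TGTGGTT and a TATA box as TATAAA. The ISRE letters stood 175 bases before the start in Cxcl9, 213 in Cxcl10, 91 in Ccl1 and 39 in Ccl3, and 7.13% of 32841 promoters of this length held them. The first form of the NF-kB letters was found at 130 and 42 bases before the start in Cxcl9 and at 103 in Cxcl10 (4.98% of promoters), and the second at 154 in Cxcl9 and 76 in Xcl1 (3.72%). The AP-1 letters were at 74 bases before the start in Cxcl10 (6.75%), and its NFAT core, at 215 bases, overlapped the ISRE (18.6% of promoters held that core). Ccl1 held the NFAT core at 116 bases, Xcl1 and Cxcl9 a RUNX match at 228 and 106 bases (4.40%), and Cxcl9 the TATA letters at 195 bases (12.4%). The GAS letters were in none of the 5 windows and in 7.02% of all promoters. These matches describe letters only.

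On GRCm38, Ccl3 (chr11:83647843-83649378), Ccl4 (chr11:83648624-83664683) and Ccl5 (chr11:83525778-83530518) lie close together, with Ccl1 (chr11:82176666-82179812) and Cxcl16 (chr11:70454389-70459984) elsewhere on chromosome 11. The RefSeq intervals of Ccl3 and Ccl4 share 755 bases, and how reads in that stretch were assigned is not given in the sources used here. Cxcl9 (chr5:92321331-92328079) and Cxcl10 (chr5:92346638-92348889) are on chromosome 5 and Xcl1 (chr1:164931644-164935522) on chromosome 1.

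The cells kept numbered 10224 in WT and 9946 in VISTA-KO, with a median of 4723 and 4670.5 UMIs, and 144 barcodes occurred in both libraries. Vsir stood at 112 (WT) and 113 (VISTA-KO) CPM over all cells, and at 112 and 111 CPM in CD8 cells. The deposited counts hold 1 number per gene and the deleted exons are not given in the sources used here, so these levels check neither label. WT and VISTA-KO therefore name the library labelled WT and the library labelled VISTA-KO, and each direction is one between these libraries. The kinds overlapped: 211 of 221 WT and 124 of 138 VISTA-KO Siglech cells also met another rule, as did 118 of 124 and 70 of 74 C1q cells. Siglech cells carried all 8 plasmacytoid dendritic markers (a summed 11839 CPM in WT and 13511 in VISTA-KO, against 622 and 618 in CD8 cells), beside 6 T cell markers at 1586 and 796 CPM in sum. The 8 markers include Siglech, which chose the cells, so part of their sum was set by the rule. C1q cells carried all 10 macrophage markers (3210 and 6640 CPM in sum) together with the T cell markers at 4845 and 4042 CPM, against 5356 and 5355 CPM in CD8 cells. Of the macrophage sum, 1642 and 3169 CPM were the C1q genes that chose the cells. These cells are therefore called C1q cells and not macrophages, and their chemokine values are those of barcodes that hold RNA of both types. In the WT library 794 of 1528 regulatory cells had a Cd8a or Cd8b1 UMI, against 375 of 1270 in VISTA-KO, and such barcodes were deeper (a median of 13941 and 9346 UMIs) than those without (5233.5 and 5151 UMIs). The 4 melanoma markers went from 10.2 CPM in WT to 194 in VISTA-KO in CD8 cells and from 5.57 to 189 in regulatory cells, but from 204 to 15.7 in conventional CD4 cells, and their part in the results was not tested.

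The cytotoxic T cell chemokines were found in every kind of cell, and their order differed. Ccl5 was highest in CD8 cells of both libraries, with 9305 CPM for WT (9274 to 9336) and 10284 for VISTA-KO (10247 to 10322), and lowest in Siglech cells, at 1830 and 1307 CPM. Conventional CD4 cells (4021 and 4461 CPM) and regulatory cells (4253 and 3233 CPM) lay between them, and no neighbours in this order overlapped in their counting intervals. CD8 cells held 365 (WT) and 445 (VISTA-KO) CPM of Ccl3, which was at 281 and 196 CPM in conventional CD4 cells and at 159 and 69.3 CPM in regulatory cells. C1q cells held 479 and 335 CPM of it, above CD8 cells in WT and below them in VISTA-KO, and the WT regulatory and Siglech levels did not differ beyond their intervals. Ccl4 had another order: its highest level in each library was in Siglech cells, with 1579 CPM for WT (1531 to 1629) and 3162 for VISTA-KO (3070 to 3255), above the 1196 and 2071 CPM of CD8 cells. Its lowest level was in regulatory cells, at 557 and 402 CPM.

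**Figure D1:**
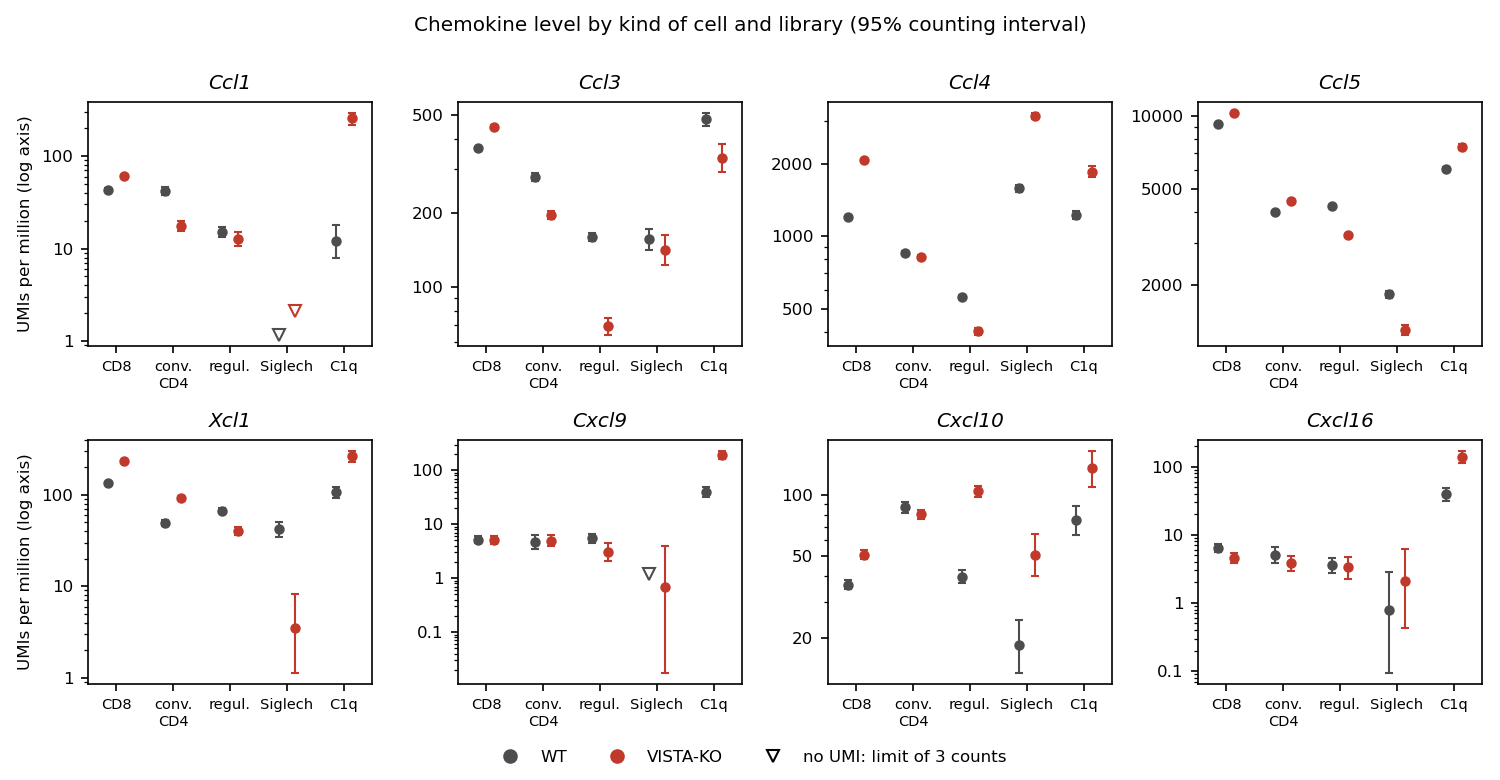
Level of each chemokine in the 5 kinds of cells, as CPM on log axes that differ between panels, for WT (grey) and VISTA-KO (red); points are the library's level, bars the exact 95% Poisson interval, and open triangles mark kinds with no UMI at the limit of 3 counts. Ccl5 is highest in CD8 cells, Ccl4 in Siglech cells, and Cxcl9 and Cxcl16 stand out in C1q cells.

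The remaining chemokines were sparser. CD8 cells held 136 (WT) and 235 (VISTA-KO) CPM of Xcl1, against 49.2 and 92.8 CPM in conventional CD4 and 67.4 and 40.2 CPM in regulatory cells. Ccl1 was at 43.4 and 60.4 CPM in CD8 cells and had no UMI in 221 WT or 138 VISTA-KO Siglech cells, which allows up to 1.17 and 2.10 CPM. Cxcl10 was lowest in Siglech cells in WT (18.4 CPM) and in CD8 cells in VISTA-KO (51.0 CPM), where the Siglech interval overlapped. Cxcl9 and Cxcl16 were near 5 CPM in the T cell kinds, between 3.12 and 6.38 CPM, and far higher in C1q cells: 39.9 and 195 CPM for Cxcl9, and 39.4 and 140 CPM for Cxcl16. Thinned to 2000 UMIs a cell, a Cxcl9 UMI was seen in 0.247% of WT and 0.60% of VISTA-KO CD8 cells (0.811% and 1.38% unthinned), and in 0 of 220 and 0 of 137 Siglech cells, which allows 1.36% and 2.19%. In CD8 cells these UMIs were unevenly spread, with 49 of 195 in 1 WT cell and 35 of 144 in 1 VISTA-KO cell.

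Between the libraries, CD8 cells held more Ccl4 and Xcl1 in VISTA-KO than in WT, while Ccl5, the most widely detected of the 8, was nearly level. WT cells held 1196 CPM of Ccl4 (1185 to 1207) and VISTA-KO cells 2071 (2054 to 2088), 1.73 times as much (1.71 to 1.75). For Xcl1 the levels were 136 CPM (132 to 139) and 235 CPM (230 to 241), also 1.73 times as much (1.67 to 1.80). In CD8 cells 6 of the 8 genes reached 20 CPM in a library, and 2 of these 6 were past 1.5-fold higher in VISTA-KO, against 0.822% of 6083 genes; none was past 1.5-fold lower, against 0.575%. The median log2 ratio of these 6 was 0.44, and that of the 6083 genes was -0.02. Ccl1 had a ratio of 1.39 (1.30 to 1.49), Cxcl10 1.40 (1.30 to 1.51), Ccl3 1.22 (1.19 to 1.25) and Ccl5 1.11 (1.10 to 1.11). Without the largest clonotype of each library (1063 WT and 292 VISTA-KO cells of any kind) the log2 ratio of Ccl4 was 0.68 and that of Xcl1 0.69. Both thus remained past 1.5-fold.

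The share of CD8 cells with a UMI gave the same order for Ccl4. Thinned to 2000 UMIs, which left out 290 WT and 186 VISTA-KO CD8 cells, 47.4% of WT (46.1% to 48.8%, exact Clopper-Pearson) and 55.7% of VISTA-KO CD8 cells (54.2% to 57.3%) had a Ccl4 UMI, against 62.8% and 68.3% unthinned. The shares with an Xcl1 UMI were 7.11% and 9.63% (12.4% and 14.9% unthinned), and those with a Ccl3 UMI 16.4% and 19.5% (27.2% and 30.7%). For Ccl5 the direction was the opposite of that of its level: 91.6% of WT and 88.7% of VISTA-KO CD8 cells had a UMI (94.3% and 92.0% unthinned), so no order of the libraries is read from Ccl5. For comparison, Siglech cells with no Cd3 UMI (127 WT and 96 VISTA-KO cells, medians of 8309 and 8690 UMIs) had a Ccl5 UMI in 33.1% and 27.1%, and an Xcl1 UMI in 0.787% and 1.04%. The source of this RNA was not tested.

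Conventional CD4 cells shared the difference in Xcl1 level but not that in Ccl4 level. Xcl1 stood at 49.2 CPM (45.1 to 53.5) and 92.8 CPM (88.1 to 97.6), 1.89 times as high in VISTA-KO (1.71 to 2.09). After thinning, the shares of cells with an Xcl1 UMI overlapped in their intervals, at 3.98% (3.08% to 5.04%) and 4.67% (3.93% to 5.51%). The 1% of cells with most Xcl1 UMIs held 60.7% and 69.6% of them. Ccl4 stood at 849 and 821 CPM (ratio 0.968; 0.942 to 0.994). Ccl1 was lower, at 41.8 CPM against 17.6 CPM (0.420; 0.361 to 0.489), but 1 WT cell held 49.8% of these UMIs. Of the 6 genes at 20 CPM, 1 was past 1.5-fold higher, against 1.07% of 6336 genes, and 1 lower, against 2.21%. The lower gene, Ccl1, reached 20 CPM in WT only. In the 1190 WT and 2410 VISTA-KO cells with no Cd8a or Cd8b1 UMI, Xcl1 kept its direction (34.5 and 62.7 CPM), whereas Ccl1 turned to 12.2 and 18.9 CPM and Ccl3, at 281 and 196 CPM over all conventional CD4 cells, turned to 60.9 and 68.9 CPM. Ccl5 was 1.67-fold higher there in VISTA-KO (2022 and 3371 CPM). Cxcl10 stood there at 165 and 78.1 CPM, but a UMI of it was in 5.80% of the WT and 8.01% of the VISTA-KO cells. Over all conventional CD4 cells 1 WT cell held 33.7% of the Cxcl10 UMIs, and without the top cell of each library its order turned, from 86.8 and 80.3 CPM to 57.7 and 66.8 CPM, so no direction is read for it. The share of barcodes with a CD8 UMI differed between the libraries (32.7% of WT and 20.9% of VISTA-KO conventional CD4 cells), and so did the 8 plasmacytoid dendritic markers (1798 and 973 CPM in sum); their part in these values was not tested.

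Regulatory cells had less Ccl3 and Xcl1 and more Cxcl10 in the VISTA-KO library. WT cells held 159 CPM of Ccl3 (154 to 165) and VISTA-KO cells 69.3 (64.2 to 74.8), a ratio of 0.435 (0.399 to 0.473). Levels of Xcl1 were 67.4 and 40.2 CPM (ratio 0.597; 0.531 to 0.670), with 43.4% of the VISTA-KO UMIs in 1 cell, and under stricter UMI rules its log2 ratio was -0.55. Cxcl10 was the gene with the opposite direction, at 39.8 CPM (37.0 to 42.8) against 104 CPM (97.6 to 111), a ratio of 2.61 (2.37 to 2.87). A Cxcl10 UMI was seen in 3.91% of WT and 9.02% of VISTA-KO regulatory cells after thinning (10.3% and 17.0% unthinned). The macrophage markers stood at 171 and 94.6 CPM in sum, and their part in the Cxcl10 values was not tested. Among the 5 genes at 20 CPM, 1 was past 1.5-fold higher, against 1.94% of 6281 genes, and 2 were lower, against 1.89%. In regulatory cells with a UMI of Nr4a1, an immediate early gene, Ccl3 stood at 196 and 66.5 CPM (0.338). In the 711 WT and 297 VISTA-KO regulatory cells without it, Ccl3 was level, at 82.4 and 83.1 CPM (1.01, 0.828 to 1.22). Xcl1 (0.552 with and 0.357 without Nr4a1) and Cxcl10 (2.64 and 2.03) kept their directions in both groups.

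The regulatory values were recomputed in cells with no Cd8a or Cd8b1 UMI, 734 in WT and 895 in VISTA-KO, whose median depths were close. Cxcl10 stood there at 25.1 and 110 CPM, a ratio of 4.39 (3.62 to 5.35), and Ccl3 at 87.9 and 36.9 CPM, a ratio of 0.420. Xcl1 was at 50.9 and 11.4 CPM, a ratio of 0.223. The shares of cells with a UMI, not thinned, had the same directions but differed less. They were 7.49% and 15.5% for Cxcl10, 10.2% and 7.49% for Ccl3, and 3.27% and 2.23% for Xcl1. Ccl4 stood at 267 and 169 CPM, past 1.5-fold lower, while the share of cells with a Ccl4 UMI went the other way (12.7% and 15.1%). Ccl5, which was at 4253 and 3233 CPM over all regulatory cells, turned to 1654 and 2312 CPM. The direction of Ccl5 in regulatory cells thus depended on the barcodes with CD8 UMIs, while those of Ccl3, Xcl1 and Cxcl10 were the same without them. Regulatory cells with such a UMI held 73.8 and 79.6 CPM of Xcl1. Without dividing cells (an Mki67 or Top2a UMI) the log2 ratio of Cxcl10 was 0.75.

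**Figure D2:**
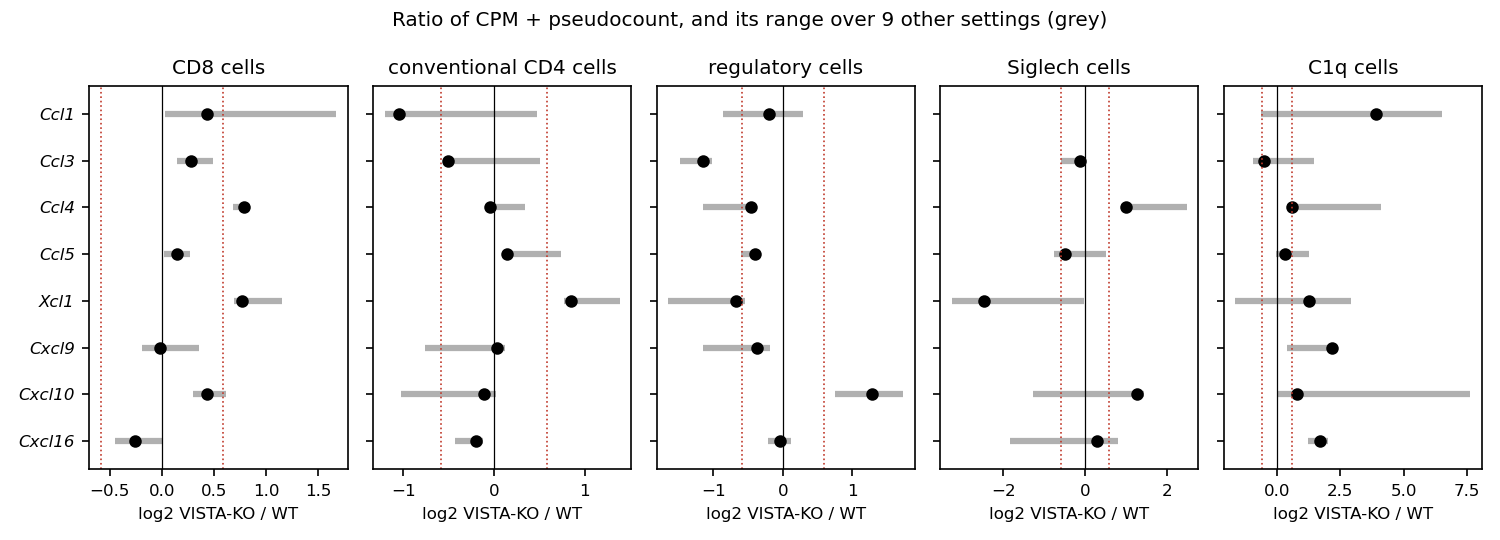
Log2 of VISTA-KO over WT (CPM + 5) for each chemokine in each kind of cell, on horizontal axes that differ between panels; the black point is the main value, the grey bar its range with the 9 planned other settings, and the dotted lines mark 1.5-fold. In CD8 cells the bars of Ccl4 and Xcl1 stay past 1.5-fold, and in C1q cells, where 1 setting left 6 and 4 cells, most bars are wide.

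Ccl4 was the chemokine of the Siglech cells. Its level in VISTA-KO was 2.00 times that in WT (1.92 to 2.09; 1579 and 3162 CPM), and a Ccl4 UMI was in 48.2% and 73.7% of the cells after thinning (69.7% and 89.1% unthinned). T cell RNA was present in these barcodes at a lower level (Cd3d, Cd3e and Cd3g at 1169 and 556 CPM in sum, against 4367 and 4277 CPM in CD8 cells). Per Cd3 UMI, Ccl4 had 1.35 UMIs in WT and 5.68 in VISTA-KO Siglech cells, against 0.274 and 0.484 in CD8 cells. Ccl5, by the same measure, had 1.57 and 2.35 UMIs per Cd3 UMI in Siglech cells and 2.13 and 2.41 in CD8 cells. In the 127 WT and 96 VISTA-KO Siglech cells with no Cd3 UMI, Ccl4 stood at 1939 and 3978 CPM, higher than over all Siglech cells, whereas Ccl5 stood at 55.3 and 47.8 CPM. The level of Ccl4 was thus no lower in Siglech cells without Cd3 UMIs, while that of Ccl5 was. Between the libraries 5 of the 6 T cell markers were past 1.5-fold lower in VISTA-KO Siglech cells, against 3.92% of 6405 genes. Ccl5 stood there at 1830 and 1307 CPM.

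The ratio of Ccl4 to Ccl3 UMIs was higher in Siglech cells than in the other kinds. WT Siglech cells had 10.1 Ccl4 UMIs per Ccl3 UMI (9.12 to 11.2) and VISTA-KO ones 22.3 (19.4 to 25.8), and the ratio was 15.3 and 41.1 in those with no Cd3 UMI. The other 4 kinds lay between 2.56 and 3.49 in WT and between 4.19 and 5.81 in VISTA-KO. In Siglech cells the r of Ccl3 and Ccl4 over all cells, not thinned, was 0.33 and 0.38. After thinning a Ccl3 UMI was in 10.4% (5.30% to 17.8%) and 11.9% (6.29% to 19.8%) of cells with Ccl4. It was in 5.26% (1.96% to 11.1%) and 5.56% (0.680% to 18.7%) of those without, and these intervals overlapped. Ccl3 itself stood in Siglech cells at 156 and 142 CPM (0.908; 0.763 to 1.08). Of 5 genes at 20 CPM in Siglech cells, 2 were past 1.5-fold higher, Ccl4 and Cxcl10, against 1.87% of 6405 genes, and 1 was lower, Xcl1, against 3.92%. Cxcl10 reached 20 CPM in VISTA-KO only (18.4 and 51.0 CPM) and Xcl1 in WT only (41.8 and 3.50 CPM). Xcl1 and Cxcl10 rested on single cells: 1 cell held 82.2% of the 107 WT Xcl1 UMIs, and 1 held 87.7% of the 73 VISTA-KO Cxcl10 UMIs. Without those cells Xcl1 was at 7.50 and 2.12 CPM and Cxcl10 at 9.48 and 6.37 CPM.

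In C1q cells all 8 genes reached 20 CPM, and 6 were past 1.5-fold higher in VISTA-KO, against 8.0% of 6486 genes; none was lower, against 6.51%. For Cxcl9 the WT level was 39.9 CPM (31.7 to 49.5) and the VISTA-KO level 195 CPM (164 to 230), 4.87 times as high (3.69 to 6.48). For Cxcl16 they were 39.4 CPM (31.3 to 49.0) and 140 CPM (114 to 171), 3.56 times as high (2.63 to 4.83). Without the cell with most UMIs in each library Cxcl9 stood at 29.3 and 111 CPM and Cxcl16 at 36.5 and 122 CPM. As the mean of each cell's own CPM, the log2 ratio of Cxcl9 was 0.37, no longer past 1.5-fold, and that of Cxcl16 was 1.22. The 10 macrophage markers, which include the C1q genes that chose the cells, were also all past 1.5-fold higher in VISTA-KO, against 8.0% of genes. The part of these markers in the values of Cxcl9 and Cxcl16 was not tested. C1q cells were deeper in WT, with a median of 13693.5 UMIs against 7592.5 in VISTA-KO, and the part of depth was not tested. Per C1q UMI, Cxcl9 had 0.0243 UMIs in WT and 0.0614 in VISTA-KO, and Cxcl16 0.0240 and 0.0443. Ccl1 reached 20 CPM in VISTA-KO only (12.2 and 256 CPM). Its 184 VISTA-KO UMIs came from 2 of 74 cells, 1 of which held 85.3% of them. Cxcl10 (75.4 and 135 CPM) had 58.8% of its VISTA-KO UMIs in 1 cell, and its mean over the cells' own CPM gave a log2 ratio of -0.01. Xcl1 stood at 107 and 263 CPM, and under stricter rules for the kind (10 C1q UMIs) its log2 ratio turned to -1.65 and that of Ccl1 to -0.64. Ccl4 was at 1225 and 1855 CPM, with a log2 ratio of 0.60 that was 0.43 without the cells left out as possible doublets. Ccl5 was at 6063 and 7465 CPM, with T cell markers in nearly every barcode (a Cd3 UMI in 97.6% and 97.3%).

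**Figure D3:**
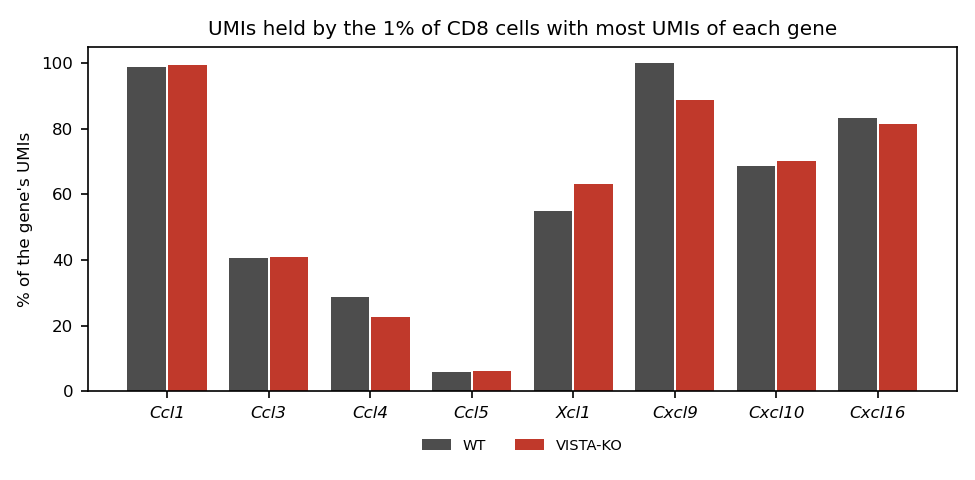
Share of each chemokine's UMIs in CD8 cells that was held by the 1% of cells with most UMIs of that gene, for WT (grey) and VISTA-KO (red). The share was 99% and 99.6% for Ccl1, and 5.79% and 6.21% for Ccl5.

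How evenly the CD8 cells carried each chemokine differed widely. The 1% of cells with most UMIs held 5.79% of all Ccl5 UMIs in WT and 6.21% in VISTA-KO, so that Ccl5 was spread over nearly all CD8 cells. For Ccl4 the shares were 28.8% and 22.6%, for Ccl3 40.6% and 40.9%, and for Xcl1 55.1% and 63.3%. Ccl1 was held almost wholly by the top 1% (99% and 99.6%): 72 WT and 51 VISTA-KO CD8 cells had a Ccl1 UMI, and the 18 and 26 of them with at least 10 UMIs held 93.4% and 96.4% of it. A single WT cell with 598 UMIs held 36.8%. Without the cell with most UMIs in each library Ccl1 stood at 27.4 and 49.4 CPM.

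Most CD8 cells with Ccl1 also had Xcl1. Of the CD8 cells with a Ccl1 UMI, 56.9% in WT and 76.5% in VISTA-KO had an Xcl1 UMI, against 12.4% and 14.9% of all CD8 cells, and of those with at least 10 Ccl1 UMIs 94.4% and 88.5% did. These cells were deeper (medians of 8822 and 9794 UMIs, against 4848 and 5224.5 over all CD8 cells). With every cell thinned to 2000 UMIs, an Xcl1 UMI was in 56.4% of 39 WT and 71.1% of 38 VISTA-KO cells with Ccl1, and in 6.74% and 9.06% of those without. Over all CD8 cells, not thinned, the Pearson r of log values between Ccl1 and Xcl1 was 0.28 in WT and 0.37 in VISTA-KO, a description over cells that share a library. Summed over the 72 and 51 cells, Xcl1 stood at 1371 and 4704 CPM and Ccl5 at 3990 and 3157 CPM, the latter below the level of all CD8 cells. The Ccl1 cells were spread over 40 clonotypes in WT and 37 in VISTA-KO, among 49 and 43 cells with a clonotype, and the largest held 8 and 5 of them.

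In CD8 cells Ccl3 went with Ccl4, and Xcl1 stood apart from Ccl5. In thinned CD8 cells 79.1% of WT and 85.6% of VISTA-KO cells with Ccl3 had Ccl4, against 41.2% and 48.5% of those without (r over all cells, not thinned, of 0.50 and 0.53, as for each r here). An Xcl1 UMI was in 6.17% of WT and 9.20% of VISTA-KO cells with Ccl5, and in 17.4% and 13.0% of the cells without it (r of -0.21 and -0.10). In VISTA-KO the counting intervals of these shares overlapped slightly (8.29% to 10.18% and 10.08% to 16.36%), and in WT they did not. Ccl4 and Ccl5 had an r of 0.32 and 0.40. For Xcl1 and Ccl4 the r was near 0 in both libraries (-0.04 and 0.03). The order of Xcl1 and Ccl5 was the other way in CD4 kinds, beyond the counting intervals in VISTA-KO only. In conventional CD4 cells Xcl1 was in 4.49% (WT) and 5.99% (VISTA-KO) of cells with Ccl5, against 3.11% and 2.43% without. In regulatory cells it was in 4.43% and 2.92%, against 2.54% and 0.504%.

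Subsets of the CD8 cells, chosen by UMIs of other genes, told the chemokines apart. Exhausted-phenotype cells, with Pdcd1 and Havcr2 and no Tcf7 UMI (745 WT and 756 VISTA-KO cells), were the highest of the 10 subsets in Ccl3, at 931 and 1029 CPM, and in Ccl4, at 2050 and 3457 CPM. Stem-like cells, with Tcf7 and Pdcd1 and no Havcr2 UMI (777 and 439 cells), were the lowest in Ccl3, at 77.6 and 82.7 CPM. The same stem-like cells were the highest in Xcl1 in WT, at 241 CPM, and stood at 274 CPM in VISTA-KO, against 135 and 229 CPM in the exhausted-phenotype cells. Ccl3 and Xcl1 thus had opposite orders in this pair of subsets in each library, beyond their counting intervals. The exhausted-phenotype cells were deeper (medians of 9817 and 8115 UMIs, against 5418 and 5601).

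**Figure D4:**
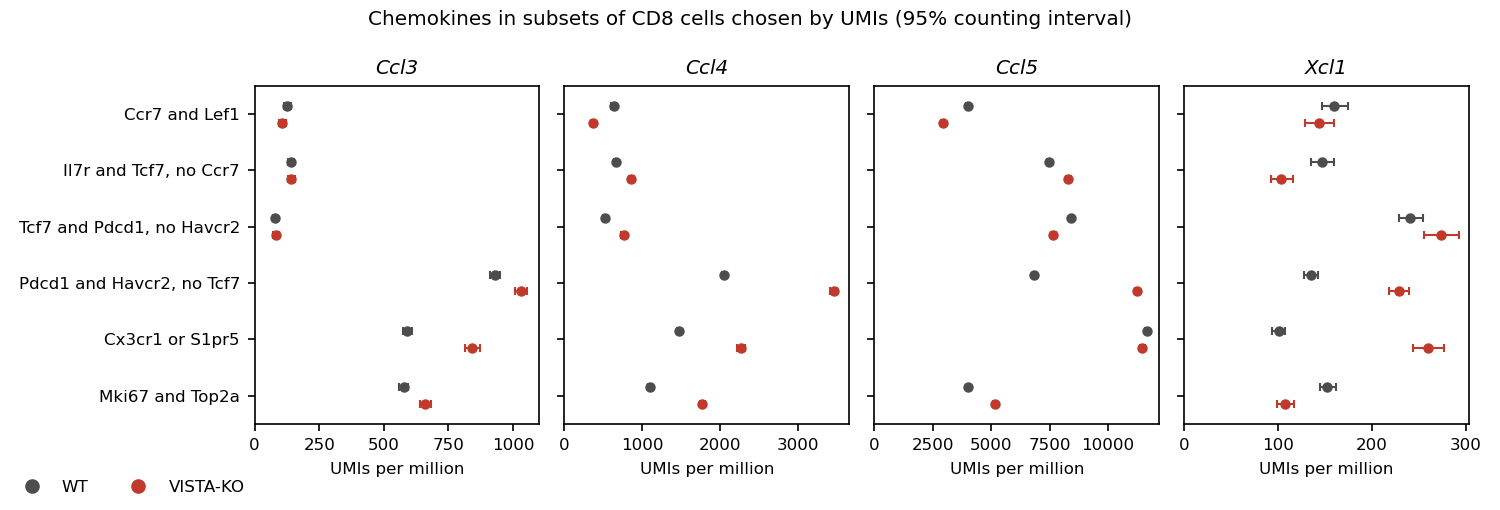
Ccl3, Ccl4, Ccl5 and Xcl1 in 6 subsets of CD8 cells, as CPM (each panel has its own axis from 0), for WT (grey) and VISTA-KO (red), with exact 95% Poisson intervals. Ccl3 and Ccl4 are highest in cells with Pdcd1 and Havcr2 and no Tcf7; Xcl1 is higher in cells with Tcf7 and Pdcd1 and no Havcr2.

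Among the WT subsets Ccl5 was highest in cells with Cx3cr1 or S1pr5, genes of effector cells, at 11659 CPM (11454 in VISTA-KO), and it was lower in naive-like cells with Ccr7 and Lef1, at 3998 and 2923 CPM. Dividing cells with Mki67 and Top2a had 3985 and 5141 CPM of it. The VISTA-KO over WT ratio of Ccl4 was above 1 in 9 of 10 overlapping subsets and past 1.5-fold higher in 5, and the naive-like cells were past 1.5-fold lower (630 and 362 CPM). In the exhausted-phenotype cells it was 1.69, and Ccl5 was higher there too, at 6849 and 11231.5 CPM (1.64). Xcl1 was past 1.5-fold higher in 3 of the 10, with 100.5 and 260 CPM in the Cx3cr1 or S1pr5 cells (2.59), and stood at 153 and 108 CPM in the dividing cells. The ratio of Cxcl10 levels was above 1 in all 10, between 1.23 and 2.54, and past 1.5-fold in 5. The share of cells with a Cxcl10 UMI, not thinned, was nevertheless lower in VISTA-KO in the exhausted-phenotype cells (6.98% in WT and 6.35% in VISTA-KO). This share was also lower in the naive-like cells and in cells with an Nr4a1 UMI (8.93% and 7.75%), and higher in the other subsets.

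Cells with a UMI of Nr4a1, an immediate early gene of T cell receptor signalling, held more Xcl1 and Ccl1. In CD8 cells Xcl1 was at 232 CPM with Nr4a1 and 69.1 CPM without it in WT (3.35-fold), and at 320 and 96.3 CPM in VISTA-KO (3.32-fold). Ccl3 was 1.80-fold and 1.99-fold higher with Nr4a1 and Ccl4 1.77-fold and 1.57-fold, whereas Ccl5 was lower (ratios of 0.760 and 0.812). Ccl1 was 22.0-fold higher with Nr4a1 in WT and 2.86-fold in VISTA-KO, but these levels rested on few cells. The WT cell with 598 Ccl1 UMIs was among those with Nr4a1, since the WT cells without it held 100 in all. A Ccl1 UMI was in 2.26% of WT and 1.59% of VISTA-KO cells with Nr4a1, and in 0.879% and 0.662% of those without, not thinned. An Nr4a1 UMI was in 1679 of 5549 WT and 2386 of 4350 VISTA-KO CD8 cells, and such cells were deeper (6101 and 5634.5 UMIs, against 4547.5 and 4721.5). Within the cells with Nr4a1 the VISTA-KO over WT ratio of Xcl1 was 1.38 and within those without it 1.39, both below the 1.73 over all CD8 cells, while that of Ccl4 was 1.49 and 1.68.

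Ccl3 differed more than Ccl4 and Ccl5 between cells with and without Ifng, a cytokine gene of activated CD8 cells. It was at 587 CPM with an Ifng UMI and 111 CPM without in WT (5.31-fold), and at 663 and 123 CPM in VISTA-KO (5.38-fold). Ccl4 was 2.26-fold and 2.64-fold higher with Ifng, and Ccl5 0.98-fold and 1.15-fold. Xcl1 was 1.36-fold higher in WT and 2.55-fold in VISTA-KO.

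Clonotypes, defined by the V gene and junction of the alpha and beta chain with most UMIs, separated Ccl5 from Xcl1 as well. Clonotype size was counted over the CD8 cells of each library. In clonotypes of 1 CD8 cell (895 WT and 1306 VISTA-KO cells) Ccl5 was at 4731 and 7263 CPM. In the 2 clonotypes of 100 or more cells (1352 and 438 cells) it was at 14053 and 15022 CPM. Xcl1 ran the other way, from 273 and 359 CPM in the single cells to 58.2 and 26.9 CPM in the largest clonotypes. Ccl3 was highest in clonotypes of 10 to 99 cells, at 605 and 779 CPM. Ccl4 was higher in VISTA-KO in each of the 4 size classes, from 547 and 1159 CPM in single cells to 1088 and 3301 CPM in the largest clonotypes, with ratios between 1.25 and 3.04.

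Single clonotypes differed in their chemokine levels. The largest WT clonotype, with 1034 CD8 cells, held 16183 CPM of Ccl5 but 78.9 CPM of Ccl3, 743 CPM of Ccl4 and 8.0 CPM of Xcl1. The second (318 cells) held 9055 CPM of Ccl5, 817 CPM of Ccl3 and 176 CPM of Xcl1. In VISTA-KO the largest (291 cells) held 2570 CPM of Ccl4 and the second (147 cells) 4531 CPM. These clonotypes also differed in genes that chose the CD8 subsets. Havcr2 was at 8.61 and 106 CPM in the largest and second WT clonotypes, and at 149 and 255 CPM in those of VISTA-KO. Tcf7 was at 100 and 29.1 CPM in WT and at 8.83 and 2.97 CPM in VISTA-KO. The part of cell state in the chemokine levels was not tested. Over the 10 largest clonotypes of a library, which are cells of 1 pool and not replicates, Ccl3 ran from 34.9 to 1420 CPM in WT and from 158 to 1615 CPM in VISTA-KO.

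**Figure D5:**
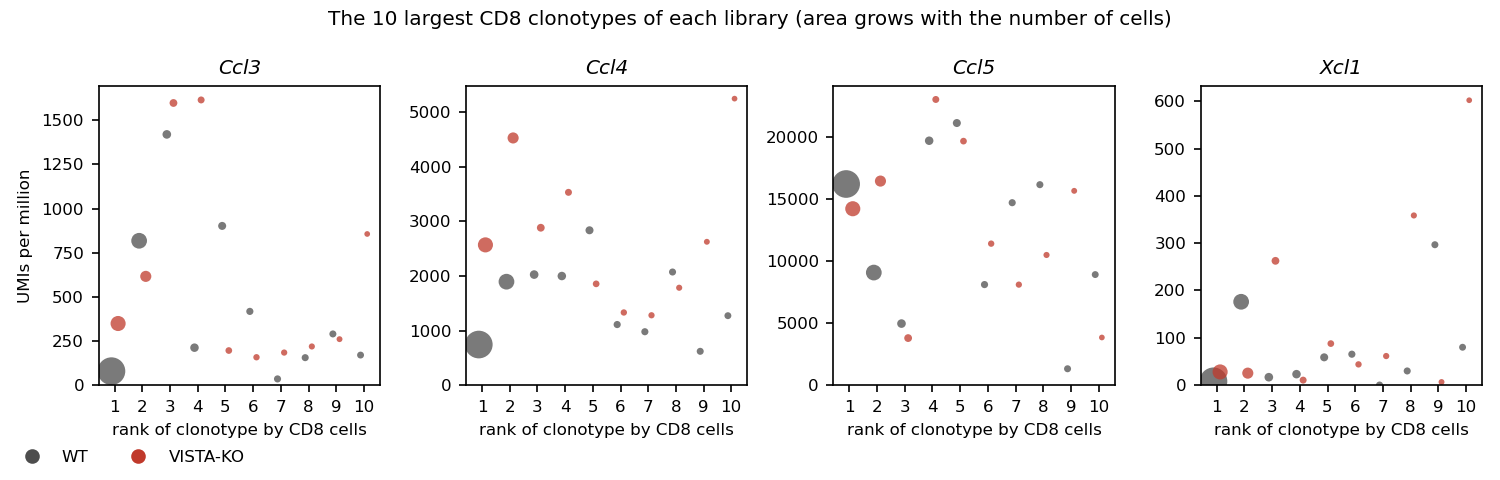
Ccl3, Ccl4, Ccl5 and Xcl1 (CPM) in the 10 largest CD8 clonotypes of WT (grey) and VISTA-KO (red), by rank, with a point area that grows with the number of cells. The largest WT clonotype, with 1034 cells, is high in Ccl5 and low in Ccl3, Ccl4 and Xcl1.

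For each chemokine the most alike genes were sought over the cells of 1 kind, that with the highest CPM over the summed UMIs of both libraries, which for Ccl1, Ccl3, Xcl1 and Cxcl10 was not the highest kind in both libraries. They were ranked by the lower Pearson r of the 2 libraries, as a description of cells that share library and depth. In 5549 WT and 4350 VISTA-KO CD8 cells, Ccl5 was most like Nkg7 (0.60), a cytotoxic granule gene, Gzmk (0.44), a granzyme, and Hcst (0.41). Xcl1 was most like Cd160 (0.25) and Crtam (0.23), receptors of activated cytotoxic cells. Ccl4, in 221 and 138 Siglech cells, was most like Plaur (0.36), Nfkbid (0.35) and Trib1 (0.34). In 124 and 74 C1q cells, Cxcl10 was most like the interferon-induced genes Isg15 (0.47) and Ifit1 (0.39) and the costimulatory receptor gene Cd40 (0.37). Cxcl9 there was most like Fcgr1 (0.45), a macrophage Fc receptor, Gatm (0.41) and Hk3 (0.37), and Cxcl16 like Slc12a9 (0.37), the myeloid factor Spi1 (0.36) and H2-Ab1 (0.33). Ccl3 in C1q cells went with Ccl4 (0.63), Rgs16 (0.46) and the T cell gene Pdcd1 (0.40), and Ccl1 with Xcl1 (0.55), Nrgn (0.30) and Emc1 (0.29), in 6 and 2 C1q cells with a Ccl1 UMI.

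Of the receptors of these ligands, 4 of the 6 listed reached 20 CPM in CD8, conventional CD4 and regulatory cells, and none was past 1.5-fold in either direction there. The share of all genes past it in a direction was between 0.575% and 2.21% in these kinds. Cxcr6 was at 561 and 623 CPM in CD8 cells and Cxcr3 at 286 and 278 CPM. Ccr8, the Ccl1 receptor, was higher in regulatory cells, at 249 and 226.5 CPM, than in CD8 cells, at 30.9 and 23.2 CPM. Xcr1, the Xcl1 receptor, did not reach 20 CPM in any kind. Of 28 other chemokine genes, none reached 20 CPM in CD8, conventional CD4 or Siglech cells, and 1 did in regulatory cells (Ccl2, at 3.50 and 22.1 CPM). In C1q cells 9 did, 8 of them past 1.5-fold higher in VISTA-KO, against 8.0% of 6486 genes. These chemokines of the C1q cells included Ccl8 (98.3 and 352 CPM), Ccl2 (74.0 and 414 CPM) and Ccl6 (74.0 and 265 CPM). The macrophage markers named above were higher there too, and a relation of these chemokines to them was not tested.

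Of 22 signalling and transcription factor genes that act upstream of chemokines, 20 reached 20 CPM in CD8 cells, 4 past 1.5-fold higher in VISTA-KO (0.822% of all genes) and none lower (0.575%). In conventional CD4 cells the count was 5 higher (1.07%) and 1 lower (2.21%) of 21, and in regulatory cells 6 higher (1.94%) and none lower (1.89%) of 20. Siglech cells had 4 higher (1.87%) and 1 lower (3.92%) of 21, and C1q cells 5 higher (8.0%) and none lower (6.51%) of 22. Most Siglech and C1q barcodes also met the rule of another kind, so these counts are not those of cells without T cell RNA. Nr4a1 was at 127 and 370 CPM in CD8 cells and at 193 and 795 CPM in regulatory cells, and Junb, an AP-1 subunit, at 1380 and 1984 CPM and at 1543 and 3594 CPM. Irf1, which acts in the interferon response, was at 235 and 311 CPM in CD8, 272 and 383 in conventional CD4, 235 and 393 in regulatory, 293 and 489 in Siglech and 171 and 245 in C1q cells. No relation of these genes to the chemokines was tested. In sums over a kind of cell, more cells with a chemokine and more RNA per such cell cannot be told apart.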

How the data were processed

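The data are 1 gene expression and 1 T cell receptor library per genotype, grouped by the sample titles. The deposited matrices hold UMI counts per gene and barcode that the authors made with Cell Ranger (5.0.0 in the file header) on mm10 (GRCm38); the submitters' processing notes also name Seurat 4, whose output was not used here. The labels name a 3′ kit and the methods a V(D)J kit, so which end of the transcripts was counted is not settled. How reads on overlapping genes were assigned is not given in the sources used here. The 8 genes and all gene lists were chosen with earlier results of these data known.

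Cells with at least 600 genes and under 30% mitochondrial UMIs were kept (10224 of 10337 and 9946 of 10085 barcodes), UMIs were summed by kind of cell, and CPM were computed on 72016854 and 59817786 UMIs in all cells. Levels carry exact 95% Poisson intervals, shares exact Clopper-Pearson intervals and ratios exact conditional binomial intervals, which cover counting error only. Shares of cells were taken after thinning each cell to 2000 UMIs, leaving out shallower cells, and the limit of a count of 0 is 3 counts. With 1 library per genotype no test was run. Doublets were kept. An alternative left out cells with more than 1 beta chain or a Scrublet doublet score in the top 8% of the library. It removed 1201 and 1215 cells and is named here as without doublets. The 8% was a fixed share and not a doublet call, so doublets may remain. After it 97 WT and 63 VISTA-KO C1q cells were left. Clonotypes are the V gene and junction of the alpha and beta chain with most UMIs; the deposited receptor counts served only to choose those chains. The genes named are the 8, the listed genes at 20 CPM or more, Xcr1 (named after its value was seen), and per chemokine the 3 genes with the highest r if at least 0.2. Promoters are RefSeq sequences (GRCm38.p6) of 250 bases. Scripts used Python 3.11.15, numpy 2.4.6, scipy 1.17.1, pandas 2.3.3, scanpy 1.11.5 and matplotlib 3.10.9 and were tested on simulated data. Values of some listed genes are not reported here.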

Additional observations from a re-analysis of the deposited data

Results flagged for a closer look

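Each result here is a chemokine that was past 1.5-fold between the libraries, in opposite directions in different kinds of cells, given as log2 of VISTA-KO over WT. With 1 library per genotype, the difference between the kinds was not tested. Ccl1 had a log2 ratio of -1.05 in conventional CD4 cells and 3.92 in C1q cells; 1 WT cell held 49.8% of the former's UMIs and 1 VISTA-KO cell 85.3% of the latter's. Xcl1 had log2 ratios of 0.77 in CD8 cells, 0.85 in conventional CD4 cells and 1.26 in C1q cells, against -0.68 in regulatory and -2.46 in Siglech cells. In Siglech cells 1 WT cell held 82.2% of the Xcl1 UMIs, and in regulatory cells 1 VISTA-KO cell held 43.4%. In C1q cells 1 VISTA-KO cell held 45.0% of them, and under stricter UMI rules the log2 ratio there turned to -1.65.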

How the results depend on the processing

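No paired analysis was possible because each genotype has 1 library. Of 38 ratios, 16 were past 1.5-fold, and all 16 stayed so in the same direction with a pseudocount of 1 CPM and with at least 1000 genes and under 10% mitochondrial UMIs. The number was 15 without the largest clonotype and 15 on CPM without mitochondrial, ribosomal protein and T cell receptor genes, 14 without dividing cells, 13 as the mean of each cell's own CPM, 12 without doublets, 11 under stricter UMI rules, and 12 of the 12 that could be computed in cells of a single kind (10 and 14 Siglech cells). Alternatives chosen after seeing the data kept 14 without the top cell of each library, 3 of 3 in regulatory cells with no Cd8a or Cd8b1 UMI, and 1 of 3 in Siglech cells with no Cd3 UMI. The cause of each change was not tested.

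Without doublets the log2 ratio was 0.81 for Ccl4 in CD8 cells, -1.49 for Ccl3 and 1.73 for Cxcl10 in regulatory cells, and 1.07 for Ccl4 and -0.63 (turned) for Cxcl10 in Siglech cells; 0 chemokines were then lower in conventional CD4 cells, 1 higher and 0 lower in Siglech cells, and 1 lower in C1q cells. In cells of a single kind Ccl4 in Siglech cells was at 2.48, with 1 higher and 0 lower there. Under stricter UMI rules Cxcl10 in regulatory cells was at 1.43, and Ccl1 in conventional CD4 cells (0.48), Ccl1 in C1q cells (-0.64) and Xcl1 in C1q cells (-1.65) turned; 2 were higher in conventional CD4 cells, 2 lower in Siglech cells, and 3 higher and 1 lower in C1q cells. Without the largest clonotype Ccl4 and Xcl1 in CD8 cells were at 0.68 and 0.69. Without dividing cells they were at 0.85 and 1.16, Ccl3 and Cxcl10 in regulatory cells at -1.02 and 0.75, and Ccl4 and Cxcl10 in Siglech cells at 0.94 and -1.27 (turned); 4 were lower in regulatory cells, 1 higher and 0 lower in Siglech cells, and 1 lower in C1q cells. As the mean of each cell's own CPM, Ccl4 and Xcl1 in CD8 cells were at 0.84 and 0.89, Ccl4 in Siglech cells at 0.88 and Cxcl10 in C1q cells at -0.010 (turned), with 0 lower in conventional CD4 and 0 lower in Siglech cells. Without Cd8a or Cd8b1 UMIs Cxcl10 in regulatory cells was at 1.94. Without Cd3 UMIs Xcl1 (0.051) and Cxcl10 (-0.47) turned in Siglech cells, with 1 higher and 0 lower. Without the top cell Xcl1 in CD8 cells was at 0.72, Cxcl10 at 1.47 in regulatory cells and at -0.35 (turned) in Siglech cells, with 1 higher there and 1 lower in C1q cells. Of 40 differences in the share of cells with a UMI, 7 changed sign after thinning to 1000 UMIs, 4 to 4000 and 6 unthinned. With all genes that had a UMI as background, 0.538% were past 1.5-fold higher and 0.321% lower in CD8 cells.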
